A study of Mus musculus with 16 samples.

Results

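H/ACA box small nucleolar RNAs (snoRNAs) are described here through the short fragments that small RNA sequencing of mouse mesenchymal stem cells found of them. The members were the annotated genes with symbols starting Snora, and their fragments were the adapter-trimmed reads of 15 nt or more that matched such a gene in sense without a mismatch and matched no miRNA hairpin. The annotation holds 40 Snora symbols among 6077 small RNA symbols. Adapter-trimmed reads were found for 33 of the 40, as 42498 reads of 311 distinct fragments.

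H/ACA snoRNAs guide the change of uridine to pseudouridine in ribosomal RNA, bound by the enzyme dyskerin and its partner proteins. Each folds into a pair of hairpins, with the single-stranded H box (ANANNA) between them and an ACA box close to the 3′ end. Most are cut out of introns of protein-coding or noncoding host genes, and the bound proteins protect their ends. Dicer is the RNase III enzyme that cuts hairpins of miRNA precursors, and fragments of miRNA size from some snoRNAs have been described as Dicer products, so the fragments were compared across the Dicer mutants of this study.

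The 16 libraries came from C57BL/6 mesenchymal stem cells, 2 per group. The WT group was Dicer f/f cells and the KO group Dicer -/- cells, both transfected with mCherry. The other 6 groups were Dicer -/- cells transfected with human Dicer, either unchanged (hsDicer) or carrying point mutations that name the groups. D1320A changes the RNase IIIa site and D1709A the RNase IIIb site, and D1320A/D1709A combines both. K70A changes the helicase domain and Y971A/Y972A the PAZ domain, where the end of a precursor is held. The labels do not say whether the 2 libraries of a group came from separate cultures, so p-values measure the spread between these libraries, which may be technical. The messenger RNA markers of the cell type are not measured by small RNA libraries. The miRNA share of adapter-trimmed reads was 58.9% and 45% in WT and 4.31% and 1.21% in KO.

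Sequencing depth was 6899754 to 17295780 adapter-trimmed reads of 15 nt or more per library, and levels are given as CPM, the reads of a gene per 1000000 of these. Replicate 1 has reads of 41 nt and replicate 2 has reads of 51 nt, so a fragment was seen with its adapter up to 36 nt in replicate 1 and up to 46 nt in replicate 2. The replicate 1 libraries stood apart. In 6 of them (all but D1320A and D1709A) the H/ACA reads were 2 to 4 distinct fragments, against 22 to 78 in the replicate 2 libraries. The same 6 libraries had 140 to 181 small RNA genes with 10 or more reads, against 331 to 571 in replicate 2 and 475 and 346 in D1320A and D1709A replicate 1. Results are therefore given over all libraries and over the replicate 2 libraries alone.

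The fragments that carried the H/ACA signal lay at the ends of the genes. The genes below are shown because they had the highest levels in replicate 2 (Snora64, Snora24), recurred there with defined ends (Snora65, Snora7a), or gave most H/ACA reads of 1 replicate 1 library each (Snora44, Snora26). Each is the annotated gene, 5′ to 3′ as DNA letters from GENCODE release M21, with its most abundant fragment in capitals.
Snora64: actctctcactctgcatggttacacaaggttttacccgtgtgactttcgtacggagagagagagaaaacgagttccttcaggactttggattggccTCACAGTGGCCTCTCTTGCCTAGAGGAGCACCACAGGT
Snora24: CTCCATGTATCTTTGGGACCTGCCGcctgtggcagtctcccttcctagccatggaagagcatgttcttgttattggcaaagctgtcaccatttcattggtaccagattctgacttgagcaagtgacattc
Snora65: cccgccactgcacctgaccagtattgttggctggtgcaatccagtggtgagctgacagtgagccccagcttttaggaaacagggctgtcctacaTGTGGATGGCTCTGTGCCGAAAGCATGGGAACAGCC
Snora7a: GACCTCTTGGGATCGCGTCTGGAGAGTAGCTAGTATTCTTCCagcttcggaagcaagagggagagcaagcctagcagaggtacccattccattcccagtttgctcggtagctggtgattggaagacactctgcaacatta
Snora44: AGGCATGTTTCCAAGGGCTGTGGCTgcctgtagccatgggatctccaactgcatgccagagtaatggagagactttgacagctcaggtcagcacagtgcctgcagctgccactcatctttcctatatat
Snora26: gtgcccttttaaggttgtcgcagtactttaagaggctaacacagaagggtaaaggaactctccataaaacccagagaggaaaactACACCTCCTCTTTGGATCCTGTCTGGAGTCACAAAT

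In GRCm38 coordinates, Snora64 lies at chr17:24720772-24720905 (+) within Rps2, Snora24 at chr3:123507937-123508066 (-) within Snhg8, and Snora65 at chr2:32963291-32963420 (+) within Rpl12. Snora7a lies at chr6:115807975-115808114 (-) within Rpl32, Snora44 at chr4:132309941-132310069 (+) within Snhg12, and Snora26 at chr5:74093530-74093650 (+) within Dancr. Each of these 6 is inside its host gene on the same strand and is overlapped by an exon of at least 1 annotated host transcript. Of all 40 members, 37 lie inside a longer gene of the same strand, 11 of them in ribosomal protein genes and 8 in Snhg genes, the class of noncoding snoRNA hosts. Of the H/ACA reads, 85.2% also matched a transcript of the host gene, and such a read cannot be told apart from a fragment of the host RNA. A share of 11% also matched a small RNA gene of another class, mostly unnamed copies. This share was highest for Snora19 (100%), Snora9 (90%), Snora81 (89.7%), Snora57 (75.1%), Snora21 (68.4%) and Snora17 (57.3%). It was 34.9% for Snora65.

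Of the 40 genes, 34 end in ACA followed by 3 bases, the form of the ACA box. Snora44 and Snora81 end in ATA followed by 3 bases. A match to ANANNA within 20 nt of the middle was present in 37 of 40 genes and was taken as the H box, and in Snora65, Snora74a and Snora78 the gene's midpoint was used in its place.

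The summed H/ACA level differed more between the replicates of several groups than between groups. The CPM in replicates 1 and 2 was 347 and 201 in WT, 2.46 and 311 in KO, 468 and 225 in hsDicer, and 293 and 258 in D1320A. It was 488 and 160 in D1709A, 210 and 249 in D1320A/D1709A, 0.278 and 227 in K70A, and 0.141 and 193 in Y971A/Y972A. All 8 replicate 2 libraries lay between 160 and 311 CPM, while replicate 1 ran from 0.141 to 488. As means ± SD (n = 2), WT was 274 ± 104, KO 157 ± 218, hsDicer 346 ± 171 and D1320A/D1709A 229 ± 27.7 CPM.

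In WT, hsDicer and D1320A/D1709A replicate 1, 1 fragment made up most of the level, whereas D1320A and D1709A replicate 1 held 52 and 27 distinct fragments with 7.47% and 9.91% of reads in the largest. In WT replicate 1, 4317 of 4876 H/ACA reads were the 36-nt 3′ end of Snora26 and the other 559 were a fragment of Snora41. In hsDicer replicate 1, 99.9% of H/ACA reads were the 25-nt 5′ end of Snora44. In D1320A/D1709A replicate 1, 99.9% were a 22-nt fragment of Snora74a. The KO, K70A and Y971A/Y972A libraries of replicate 1 held 17, 3 and 2 adapter-trimmed H/ACA reads. Reads without adapter numbered 6351 (all Snora28), 1228 (all Snora74a) and 4004 (4002 of Snora62) there, and with both kinds counted, over all reads of 15 nt or more, these libraries were at 616, 83.2 and 227 CPM. All 4 fragments of KO replicate 1 and both of Y971A/Y972A replicate 1 had 500 or more reads in another replicate 1 library, as did 1 of the 3 in K70A replicate 1, and whether reads crossed between libraries was not tested. The related Scarna genes, snoRNA-like guides of the Cajal body, were at 0.0713 to 0.346 CPM in WT, KO, hsDicer and Y971A/Y972A replicate 1. They were at 201 CPM in K70A and 268 CPM in D1320A/D1709A replicate 1, and at 115 to 339 CPM in the replicate 2 libraries.

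**Figure D1:**
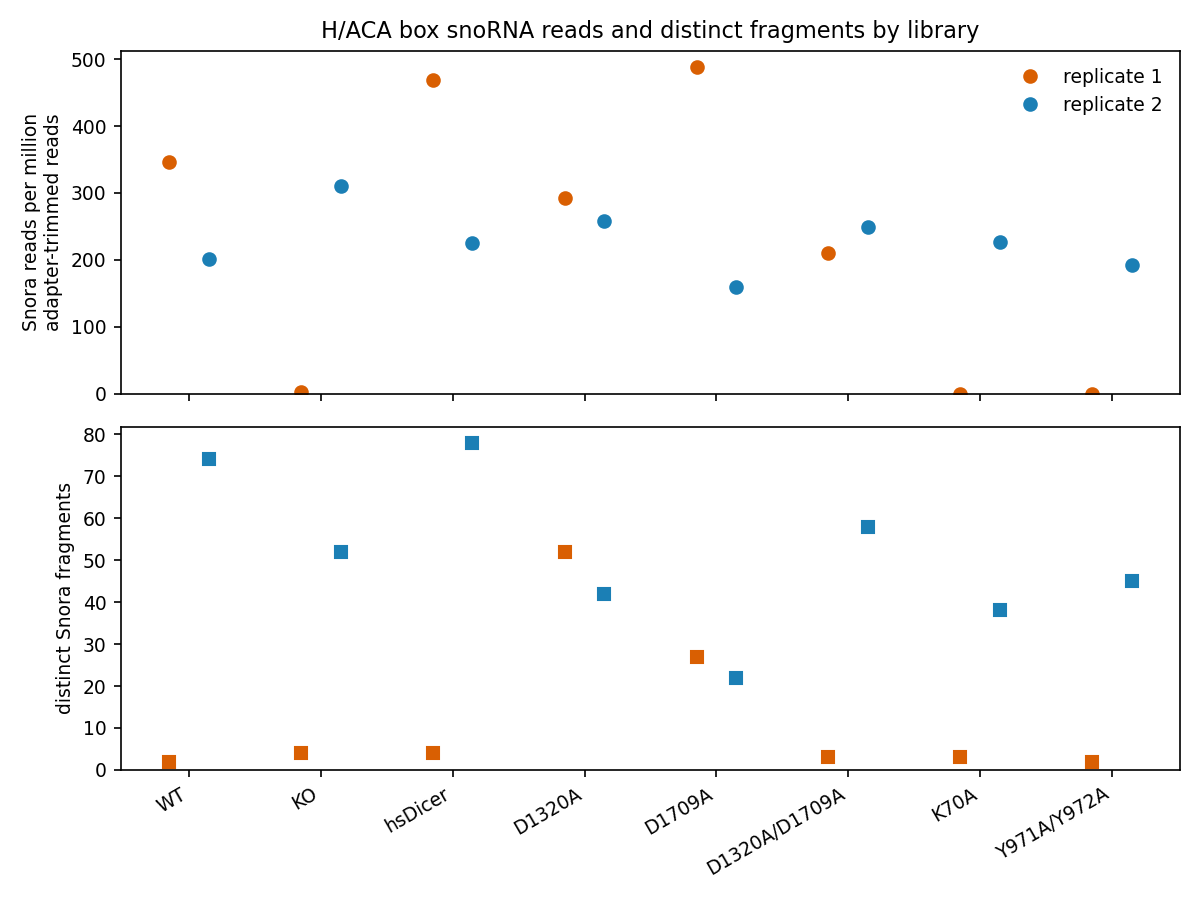
Upper panel, level of H/ACA (Snora) reads in CPM; lower panel, number of distinct H/ACA fragments; each point is 1 library, orange for replicate 1 and blue for replicate 2. The replicate 2 points lie between 160 and 311 CPM with 22 to 78 fragments, and 6 replicate 1 libraries have 4 fragments or fewer.

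Whether H/ACA fragments depend on Dicer was tested by its RNase III activity, and RNase III activity below means that of Dicer only. The 4 libraries without it (KO and D1320A/D1709A) were set against the 8 with both sites intact (WT, hsDicer, K70A and Y971A/Y972A). The summed level was 193 ± 134 CPM (SD, n = 4) without and 208 ± 158 CPM (SD, n = 8) with RNase III activity, and the difference of -14.8 CPM did not pass (exact permutation test over libraries, 2-sided, p = 0.909, Benjamini-Hochberg adjusted over 8 values 0.909). With miRNA reads left out of the library size the difference was -168 CPM (exact permutation p = 0.378). In the replicate 2 libraries alone, the inactive libraries had 311 and 249 CPM and the intact ones 201, 225, 227 and 193 CPM, so the groups did not overlap (difference 68.2 CPM, exact permutation p = 0.0667, the smallest that 2 against 4 libraries can give). The miRNA share was 1.21% and 1.06% in these inactive libraries and 8.1% to 45% in the intact ones. With the reads that match a miRNA hairpin left out of the library size, the inactive libraries had 315 and 251 CPM and the intact ones 366, 290, 298 and 210 CPM, and the groups overlapped. A dependence of the summed level on RNase III activity was thus not detectable in these libraries.

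No H/ACA gene passed edgeR's quasi-likelihood test at an adjusted p under 0.05 in any of 8 comparisons, with 33 genes tested among 857 small RNA genes. The share of all genes called was 0.467% in KO against WT, 0.35% in hsDicer against KO and 0.117% in D1320A, 0.35% in D1709A, 1.17% in D1320A/D1709A, 0% in K70A and 0% in Y971A/Y972A against hsDicer. With the replicate number as a block, no H/ACA gene was called either, and the share of all genes called was 1.75% in KO against WT (15 genes in place of 4) and 1.05% in hsDicer against KO (9 in place of 3). Against hsDicer it was 0.233% in D1320A, 0.467% in D1709A, 1.98% in D1320A/D1709A (17 in place of 10), 0% in K70A and 0% in Y971A/Y972A, and in the pooled comparison it was 4.78%. The share of all genes called in the pooled comparison of no RNase III activity against both sites intact was 3.85%, and all 33 genes called there were miRNA genes that fell, whereas TMM scaling gave 18 calls, all upward and none of them an H/ACA gene. Beside the 0 of 33 H/ACA genes, 0 of 77 Snord genes (C/D box snoRNAs), 0 of 17 Scarna genes and 0 of 130 other snoRNA genes were called. Passes at an unadjusted p under 0.05 were counted among H/ACA genes only, so the counts that follow have no share of all genes beside them. At an unadjusted p under 0.05 there was 1 H/ACA gene in Y971A/Y972A against hsDicer (Snora44) and 1 in the pooled comparison (Snora17), and none in the other 6. With reads that also match a gene of another class left out, no H/ACA gene reached it in the pooled comparison. With the replicate number as a block, 4 H/ACA genes had an unadjusted p under 0.05 in D1320A against hsDicer (Snora3, Snora31, Snora64 and Snora65, all higher in D1320A, edgeR adjusted p 0.445) and 4 in D1709A (Snora57, Snora65, Snora69 and Snora73a, all higher in D1709A, edgeR adjusted p 0.555). In that fit the median log2 fold change of D1320A against hsDicer was 4.44 over the H/ACA genes and 0.79 over all genes, and hsDicer replicate 1 held almost only Snora44. The common biological coefficient of variation was 2.13 without and 1.66 with the block, so a count of 0 calls does not show that these genes were unaffected. The median log2 fold change in the pooled comparison was -0.17 over the 33 H/ACA genes and -0.43 over all 857 genes.

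With the replicate 2 libraries alone, the share of all genes called rose to 14.5% (117 of 808), and 116 of the 117 were miRNA genes that fell. The remaining call was a snoRNA gene that rose, 1 of 128 tested whose symbols are not Snora, Snord or Scarna. None of the 32 H/ACA genes tested was called in that fit. There 2 of them had an unadjusted p under 0.05 in edgeR: Snora41, at a log2 fold change of -9.36 (adjusted p = 0.148), and Snora62, at -7.28 (adjusted p = 0.227). The share of all 808 genes at that unadjusted threshold was not counted. Snora41 was at 0 adapter-trimmed reads in KO and D1320A/D1709A replicate 2, which allows up to 0.305 and 0.19 CPM of such reads. It was at 15.1, 5.94 and 5.23 CPM in WT, hsDicer and K70A replicate 2, but also at 0 in Y971A/Y972A replicate 2. The gene was not absent from the inactive libraries. Reads of Snora41 without adapter numbered 37 in KO and 54 in D1320A/D1709A replicate 2. They numbered 49 in WT, 20 in hsDicer, and 0 in K70A and Y971A/Y972A replicate 2. DESeq2, an alternative tool, called 1 to 3 H/ACA genes in 5 of the 8 comparisons. In the same fits it called 4.2% of all 857 genes in hsDicer against KO, 1.28% in D1709A, 0.583% in K70A and 1.17% in Y971A/Y972A against hsDicer, and 13.4% in the pooled comparison. In the other 3, with no H/ACA gene called, it called 4.78% in KO against WT, 1.4% in D1320A and 4.43% in D1320A/D1709A against hsDicer. In the pooled comparison the H/ACA gene called was Snora74a, whose reads came almost wholly from D1320A/D1709A replicate 1.

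Snora64, a guide of large-subunit rRNA, was the most abundant member in 7 of the 8 replicate 2 libraries and, at a mean of 25.9 CPM over all 16, the third of all members. Its level in replicate 2 was 28.2 CPM in WT, 96.2 in KO, 40.8 in hsDicer, 47.5 in D1320A, 18.7 in D1709A, 84.2 in D1320A/D1709A, 59.5 in K70A and 28.1 in Y971A/Y972A. KO and D1320A/D1709A were the highest 2 of the 8. Over the replicate 2 libraries, the pooled comparison of Snora64 did not pass (log2 fold change 1.2, edgeR adjusted p = 0.305). With miRNA reads left out of the library size, its main fragment was at 77.8 CPM in K70A, against 74.8 in KO and 69 in D1320A/D1709A. In replicate 1, adapter-trimmed reads of Snora64 were seen only in D1320A, at 10.7 CPM. The 38-nt fragment from position 97 to the last base, 134, made up 81.6% of its reads, had 10 or more reads in all 8 replicate 2 libraries and is longer than replicate 1 reads can show with their adapter. Among reads without adapter, D1709A replicate 1 held 398 of Snora64.

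Snora24, a guide of small-subunit rRNA, was found in all 8 replicate 2 libraries. Its levels there were 18.7 CPM in WT, 20 in KO, 35.6 in hsDicer, 40.4 in D1320A, 51 in D1709A, 30.6 in D1320A/D1709A, 14 in K70A and 17.6 in Y971A/Y972A, and 17.4 and 18.6 CPM in D1320A and D1709A replicate 1. Values with no RNase III activity, 20 and 30.6, lay inside the range of those with both sites intact, 14 to 35.6. Its reads began at the 5′ end in 74.1% of cases, mainly as fragments of 25 nt (832 reads, all 8 replicate 2 libraries with 10 or more) and 43 nt (695 reads, 7 libraries), which share the first base.

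Snora65, a guide of large-subunit rRNA, was the third member with 10 or more reads in every replicate 2 library, at 9.64 to 25.7 CPM, with 18.5 in KO and 25.7 in D1320A/D1709A against 13 in WT and 10.4 in hsDicer. Its leading fragment of 36 nt ran from position 95 to the last base, 130, and an 18-nt fragment from 113 shared that end. Snora61, of the Snhg12 host, was the other member of this kind that reached 10 or more reads in all 8, at 0.695 to 13.9 CPM. Levels of Snora65 with and without RNase III activity overlapped, since Y971A/Y972A replicate 2 was at 21.9 CPM.

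Snora44, a guide of small-subunit rRNA, had the highest mean, 41.9 CPM, but 467 CPM of hsDicer replicate 1 made it so. In replicate 2 it was at 13.2 CPM in WT, 12 in KO, 2.97 in hsDicer, 14.2 in D1320A, 19.3 in D1709A, 24.3 in D1320A/D1709A, 20.6 in K70A and 0 in Y971A/Y972A. Snora26 was likewise second through WT replicate 1, at 308 CPM, with 0 to 18.4 CPM in replicate 2. Snora74a was at 209 CPM in D1320A/D1709A replicate 1 and at 0 to 5.61 CPM in replicate 2. The leading fragments of these 3 genes were near absent from the other libraries: the 25-nt fragment of Snora44 had 10 or more reads in 3 of 16 libraries, the 36-nt fragment of Snora26 in 3, and the 22-nt fragment of Snora74a in 1.

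The remaining members of the leading 12 had lower levels. Snora73a, the U17 snoRNA that acts in the processing of ribosomal RNA precursors, was at 35.8 CPM in KO and 16 in D1320A/D1709A replicate 2, against 5.2 in WT, 14.1 in hsDicer, 5.39 in K70A and 11.1 in Y971A/Y972A. D1320A and D1709A were at 18.6 and 0 CPM in replicate 2, and at 22.6 and 64.3 in replicate 1. Over the replicate 2 libraries, the pooled comparison of Snora73a did not pass (log2 fold change 1.53, edgeR adjusted p = 0.396). The 39-nt leading fragment of Snora73a ended at the last base, 205. Snora7a, a guide of large-subunit rRNA, was at 0 to 34 CPM in replicate 2, and 75.5% of its reads began at the 5′ end, led by a 42-nt fragment. Snora81 was at 0 to 16.9 CPM, Snora16a at 0 to 5.38, Snora41 at 0 to 15.1 and Snora21 at 0 to 16.5 CPM in replicate 2. Over all libraries, more than 50% of the reads of each reached the 3′ end. For Snora41 this share was 65.5% of 1254 reads. Of these 1254, 559 were 1 fragment of WT replicate 1 that ends 3 nt before the last base. Snora3, named because its human counterpart is a known source of short fragments, was at 0 to 25.1 CPM in replicate 2, and 100% of its counted reads began at the 5′ end. A further 325 of its reads match the annotated hairpin Gm47277 and were left out, 221 of them on its 3p side, and with them 84.8% began at the 5′ end.

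The other members with reads had means from 0.094 CPM (Snora23) to 5.96 CPM (Snora61). Snora23 and Snora15 were each found in 1 library only. No adapter-trimmed read was assigned to 7 members. Of these, Snora28, Snora30 and Snora5c had reads without adapter, Snora36b had only reads that match a miRNA hairpin, and Snora35, Snora43 and Snora47 had none. Snora35 lies in an intron of Htr2c, a serotonin receptor gene known for its expression in brain. A count of 0 allows up to 0.173 to 0.435 CPM, depending on the library, and covers counting error only.

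**Figure D2:**
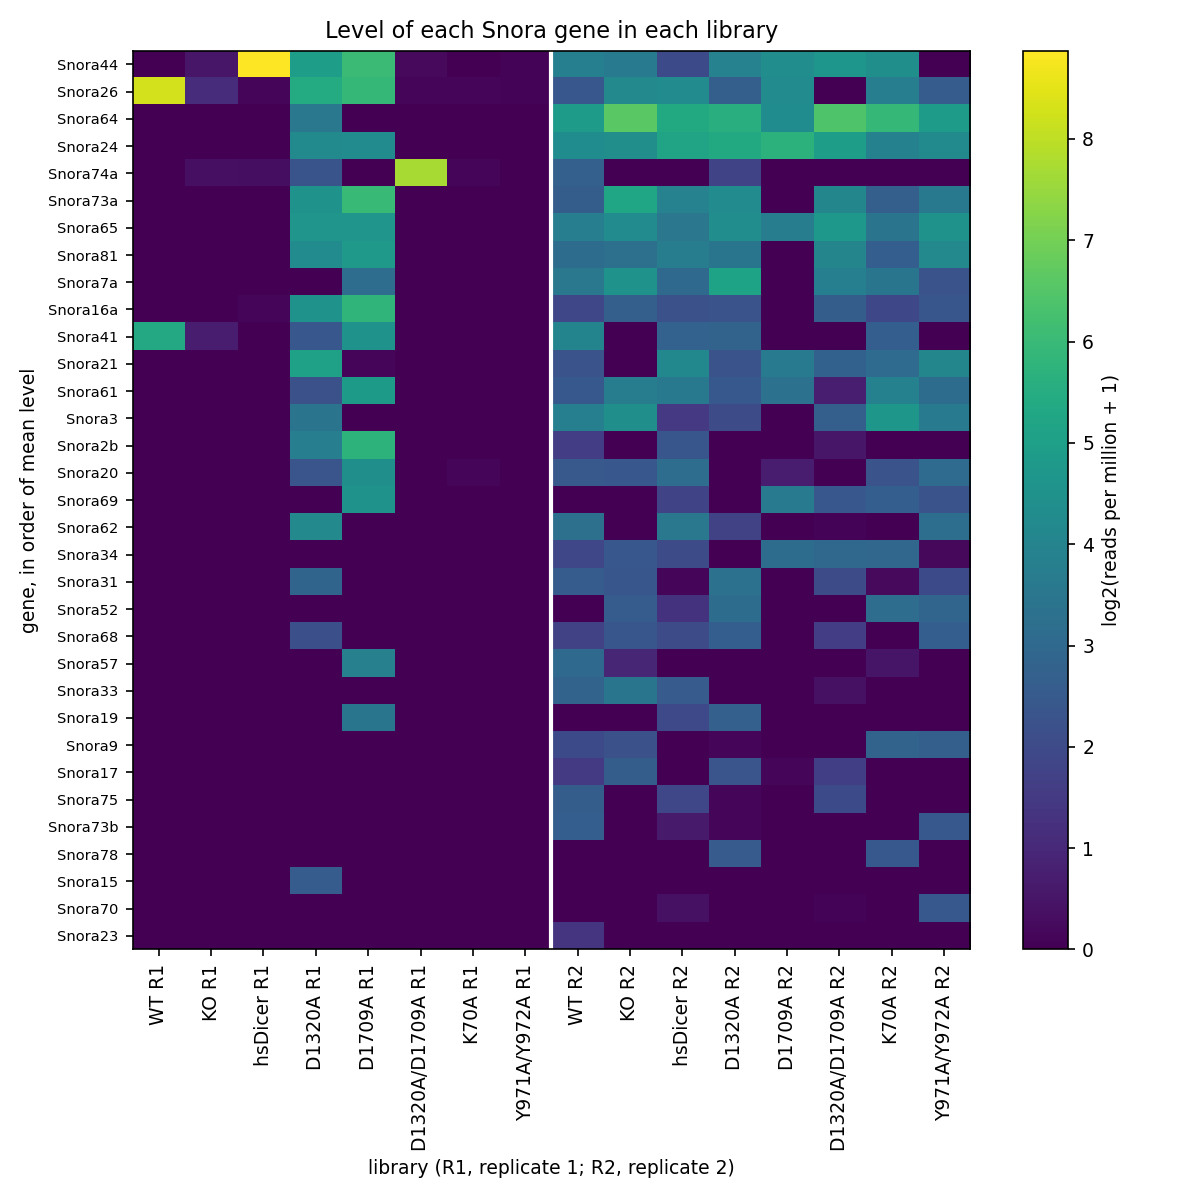
Level of the 33 H/ACA genes with reads (rows, in order of mean level) in each library (columns, replicate 1 left of the white line and replicate 2 right), as log2(CPM + 1). The replicate 1 side is almost empty outside D1320A and D1709A, apart from Snora26 and Snora41 in WT (308 and 39.8 CPM), Snora44 in hsDicer (467 CPM) and Snora74a in D1320A/D1709A (209 CPM); Snora64 and Snora24 run through all replicate 2 libraries.

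Few fragments recurred. Of the 311 distinct fragments, 247 had 10 or more reads in at least 1 replicate 2 library, and 191 of these in only 1. The number with 10 or more reads in all 8 was 2, the 38-nt fragment of Snora64 and the 25-nt fragment of Snora24. The Snora64 fragment was at 18.4 CPM in WT, 73.9 in KO, 32.4 in hsDicer, 43.9 in D1320A, 18.6 in D1709A, 68.2 in D1320A/D1709A, 59.2 in K70A and 23.9 in Y971A/Y972A. The range with both sites intact, 18.4 to 59.2 CPM, lay below the 2 values without RNase III activity. With miRNA reads left out of the library size the groups overlapped, at 33.6, 41.8, 77.8 and 26 CPM in WT, hsDicer, K70A and Y971A/Y972A against 74.8 in KO and 69 in D1320A/D1709A. In WT replicate 2 the rarest of 74 fragments had 13 reads and the median fragment 40, so reads piled up on few sequences, and reads of 1 fragment are not independent molecules.

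Most fragments came from the ends of the mature snoRNA. In the replicate 2 libraries, 44.1% to 72.7% of H/ACA reads ended within 3 nt of the gene's 3′ end, 18.8% to 34.5% started within 2 nt of its 5′ end, and 6.31% to 21.9% did neither. The 3′ end share was 65.2% in KO and 72.7% in D1320A/D1709A, against 51.2% in WT, 70.2% in hsDicer, 58.4% in K70A and 68.5% in Y971A/Y972A. By structure, 49.6% to 74.8% of reads came from the 3′ strand of the 3′ hairpin, the strand that leads into the ACA box, and 18.8% to 35.5% from the 5′ strand of the 5′ hairpin. The inner strands, next to the H box, were rare, at 1.42% to 6.07% for the 3′ strand of the 5′ hairpin and 2.64% to 8.86% for the 5′ strand of the 3′ hairpin. The 2 arms of a hairpin were thus not equally represented in any of these libraries.

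Genes differed in which end they gave. Among the 30 genes with 100 or more reads, over 50% of reads reached the 3′ end in 18, among them Snora64, Snora65, Snora26 and Snora73a. Over 50% began at the 5′ end in 6: Snora3, Snora7a, Snora19, Snora24, Snora44 and Snora68. The class of Snora44 was set by 1 library. Of its 7588 reads, 5399 were the 25-nt 5′ fragment in hsDicer replicate 1, and its fragments ranked 2 to 5 all reached the 3′ end. Snora41, among the 18, had 559 of its 1254 reads in 1 fragment of WT replicate 1. The classes also depend on leaving out the reads of miRNA hairpins. With those reads counted, 30.3% of Snora19 reads began at the 5′ end in place of 100%, and 78.4% of Snora34 reads did in place of 0%. Neither end held over 50% in Snora9, Snora17, Snora31, Snora69, Snora74a and Snora78.

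**Figure D3:**
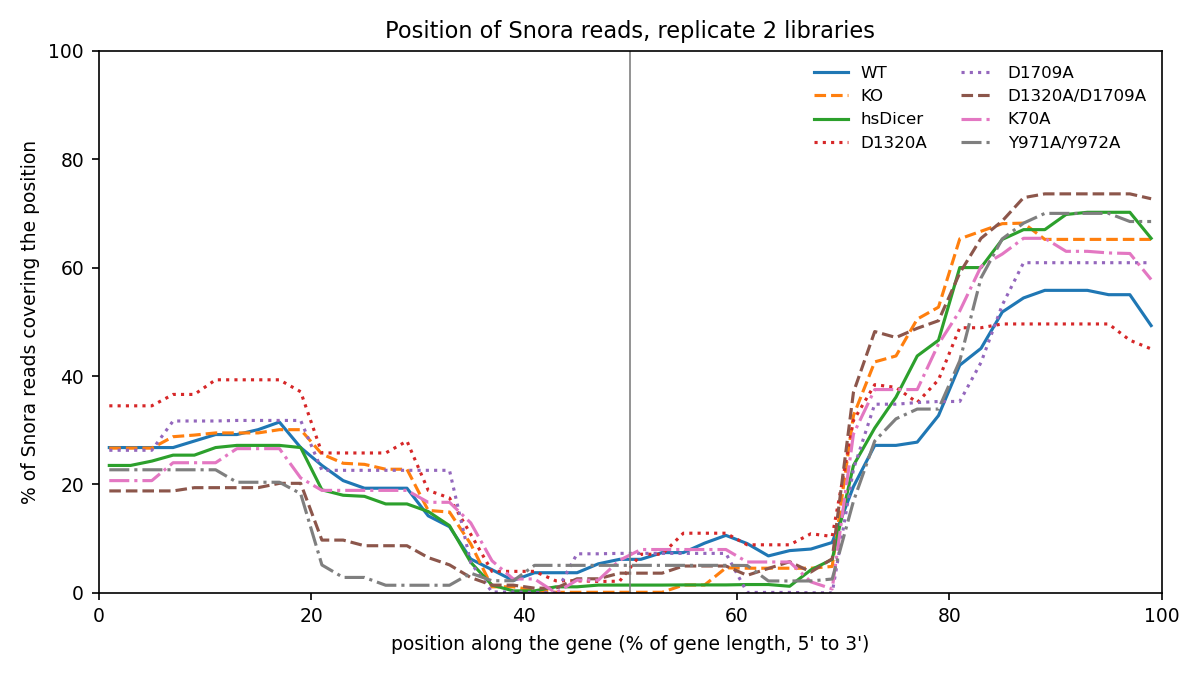
Percent of H/ACA reads that cover each position along the gene, as a percent of gene length from 5′ to 3′, 1 line per replicate 2 library; the vertical line is the middle of the gene. All 8 lines are high at both ends and low around the middle, and the 3′ end is higher than the 5′ end in each.

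Many H/ACA reads were longer than miRNAs. In replicate 2, 28.7% to 65.2% of H/ACA reads were longer than 36 nt. The lengths here are of adapter-trimmed reads, up to 46 nt, and leave out H/ACA reads without adapter. Those numbered 2368 beside 3059 adapter-trimmed reads in KO replicate 2, but 280 beside 2777 in K70A replicate 2. Weighted by reads, the median length was 38 nt at the 5′ end, 37 nt at the 3′ end and 30 nt for inner fragments, and with each distinct fragment given equal weight it was 31.5, 27 and 30 nt. Among reads of 36 nt or less, the length both replicates show, 20 to 24 nt made up 39.1% in WT, 37.3% in hsDicer, 46.5% in K70A and 27.8% in Y971A/Y972A replicate 2, and 13.6% in KO and 37.6% in D1320A/D1709A replicate 2. The value of KO was below all 4 intact libraries and that of D1320A/D1709A was inside their range. Over all libraries with 20 or more H/ACA reads, the share was 50.4% ± 44.5 (SD, n = 3) without and 27% ± 17.9 (SD, n = 6) with RNase III activity (exact permutation p = 0.286, adjusted 0.909). The median length of these reads was 25.3 ± 3.51 nt (SD, n = 3) without and 26.3 ± 4.8 nt (SD, n = 6) with activity (exact permutation p = 0.833, adjusted 0.909).

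The shares by position did not separate either. Reads starting at the 5′ end were 15.2% ± 13.7 (SD, n = 3) without and 32.3% ± 34.5 (SD, n = 6) with RNase III activity (exact permutation p = 0.536), and without hsDicer replicate 1 the difference was -3.54 in place of -17.1 percentage points. Reads reaching the 3′ end were 46% ± 40 against 58.1% ± 32.9 with the same n (exact permutation p = 0.726). The share from the 3′ hairpin was 49.9% ± 43.4 against 64.4% ± 33.7 (exact permutation p = 0.774), and that from the 3′ strand of either hairpin 81.6% ± 16.3 against 62.3% ± 33.2 (exact permutation p = 0.345), a difference of 19.3 points that was 6.85 without hsDicer replicate 1. Reads of Snora genes were 0.153% ± 0.115 (SD, n = 4) of all snoRNA reads without and 0.534% ± 0.664 (SD, n = 8) with activity (exact permutation p = 0.251). All snoRNA reads here include snoRNA genes with symbols other than Snora, Snord or Scarna. These were at 13528 to 147456 CPM and were not sorted by box type. All adjusted p-values over the 8 values were 0.909. A p that misses the threshold does not show that the values are the same, and the single-fragment libraries of replicate 1 set most of these spreads.

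**Figure D4:**
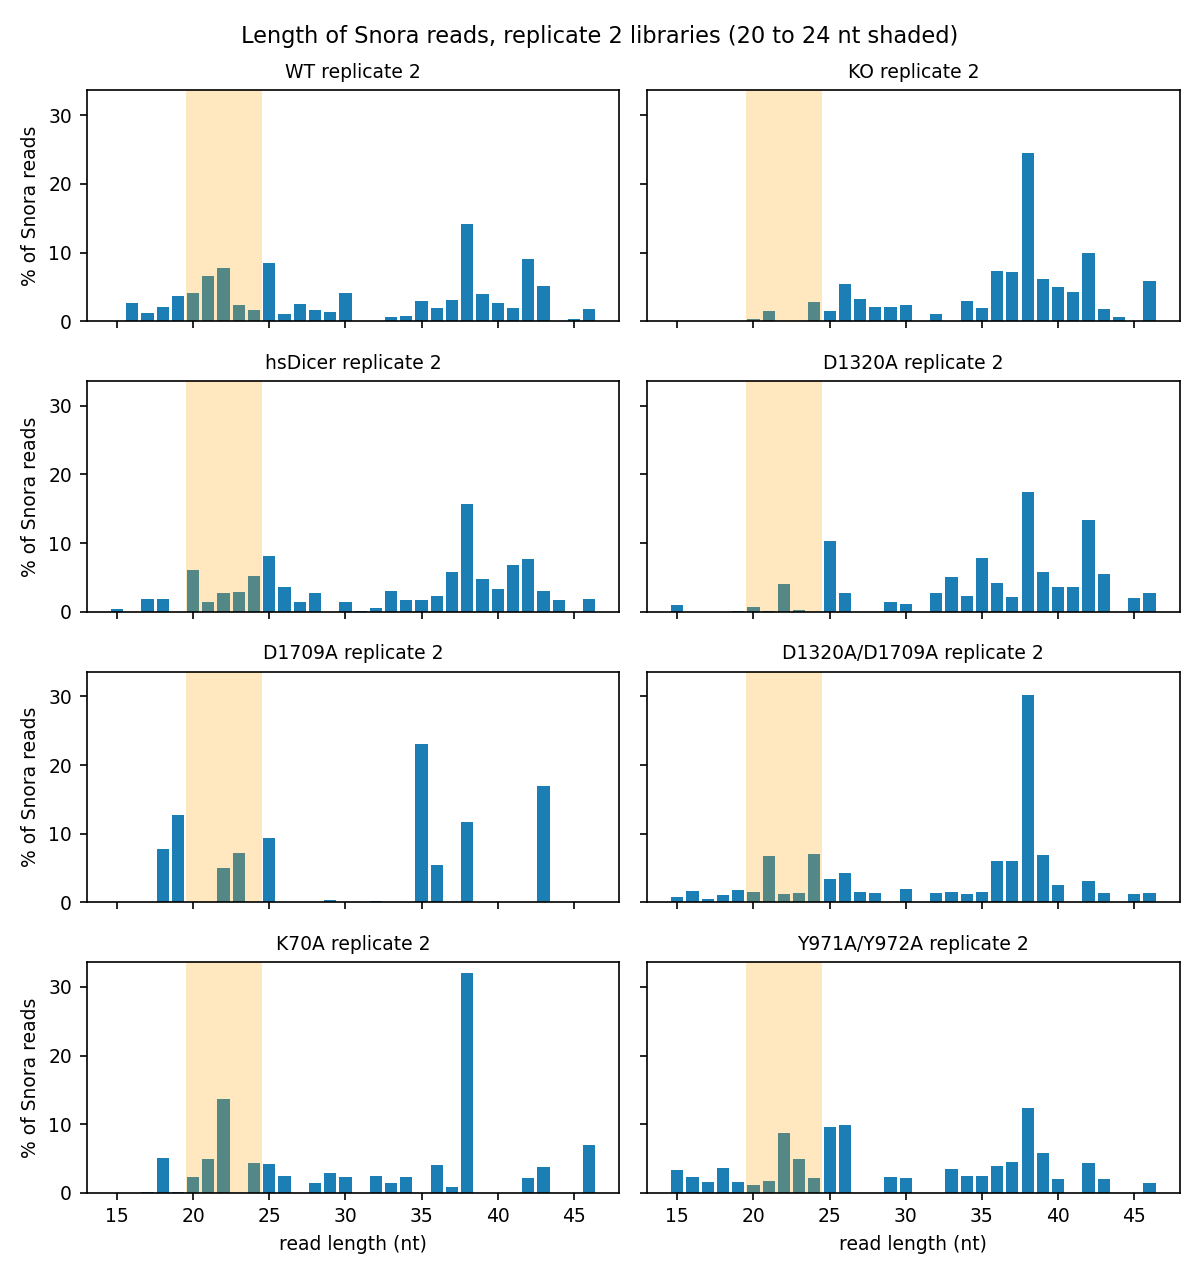
Length of H/ACA reads (horizontal axis, nt) as a percent of the H/ACA reads of each replicate 2 library (vertical axis), with 20 to 24 nt shaded. The 38-nt bar, mainly the 3′ end of Snora64, stands out in most panels, and the highest bar lies outside 20 to 24 nt in all 8.

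The members whose genes hold an annotated miRNA were counted apart. Snora36b, at chr1:185242907-185243038 (+) in an intron of Rab3gap2, holds the hairpin of Mir664 in its 3′ part. It had 3455 adapter-trimmed reads, and every one matched the hairpin, so none counts among the H/ACA reads above. They are given here as a contrast, since the miRNA arms lie inside an H/ACA gene. The gene is shown with the mature miRNA sequences in capitals, and the mature sequences, from RefSeq (GRCm38.p6), with the seed (bases 2 to 8) in capitals.
Snora36b: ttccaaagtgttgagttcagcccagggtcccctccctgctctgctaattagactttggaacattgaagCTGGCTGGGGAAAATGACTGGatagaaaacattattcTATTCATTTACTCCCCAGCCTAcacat
mmu-miR-664-5p: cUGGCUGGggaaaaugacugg
mmu-miR-664-3p: uAUUCAUUuacuccccagccua
mmu-miR-3084-3p: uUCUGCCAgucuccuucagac
mmu-miR-1291: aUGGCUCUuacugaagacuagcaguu

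The 5p reads of Snora36b started mostly at position 69, the first base of the mature 5p form, and the leading fragment was 22 nt. In replicates 1 and 2 the 5p arm was at 76.4 and 23.8 CPM in WT, 0.145 and 0.102 in KO, 0 and 19.2 in hsDicer, 14.6 and 18.8 in D1320A, and 0 and 0.357 in D1709A. It was at 0 and 0 in D1320A/D1709A, 0.0926 and 17.9 in K70A, and 0.0704 and 19.4 in Y971A/Y972A. The 3p arm was at 0 and 4.91 CPM in WT, 0 and 0 in KO, 0 and 15.3 in hsDicer, 0 and 0 in D1320A, 29.1 and 12.3 in D1709A, 0 and 3.16 in D1320A/D1709A, 0 and 9.48 in K70A, and 0 and 7.48 in Y971A/Y972A. The 5p arm was thus the arm seen with D1320A and the 3p arm the one seen with D1709A, in both replicates of each. The 50 reads of D1320A/D1709A replicate 2 were a 26-nt fragment that starts at position 103, while the 3p reads of other libraries started mostly at 106.

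Over both arms, Mir664 had a log2 fold change of -5.46 ± 3.58 (SE) in the pooled comparison (edgeR adjusted p = 0.681), which did not pass. In the replicate 2 libraries the log2 fold change was -4.15 (edgeR adjusted p = 0.0668), which did not pass either. In hsDicer, K70A and Y971A/Y972A replicate 1, which hold few H/ACA fragments, Mir664 had 0 or 1 reads.

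Other hairpin reads behaved differently from each other. In Snora19, whose gene at chr19:60774330-60774461 (-) holds a copy of Mir3084, reads of the 3p arm were at 9.83 CPM in WT, 2.01 in hsDicer, 9.17 in D1709A, 6.21 in K70A and 4.09 in Y971A/Y972A replicate 2, and at 0 in KO, D1320A and D1320A/D1709A. A second Mir3084 locus has the same mature sequence, so these reads cannot be placed. In Snora34, the reads that matched Mir1291 began at the first base of the snoRNA and were at 31.5 CPM in KO and 25.5 in D1320A/D1709A replicate 2, against 11.2 in WT, 5.54 in hsDicer, 0 in K70A and 11.4 in Y971A/Y972A. Mir1291 did not pass in the pooled comparison over the replicate 2 libraries (log2 fold change 2.02, edgeR adjusted p = 0.396). Snora19 was chosen after its values were seen, while Snora34 and Snora36b are named by the rule.

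**Figure D5:**
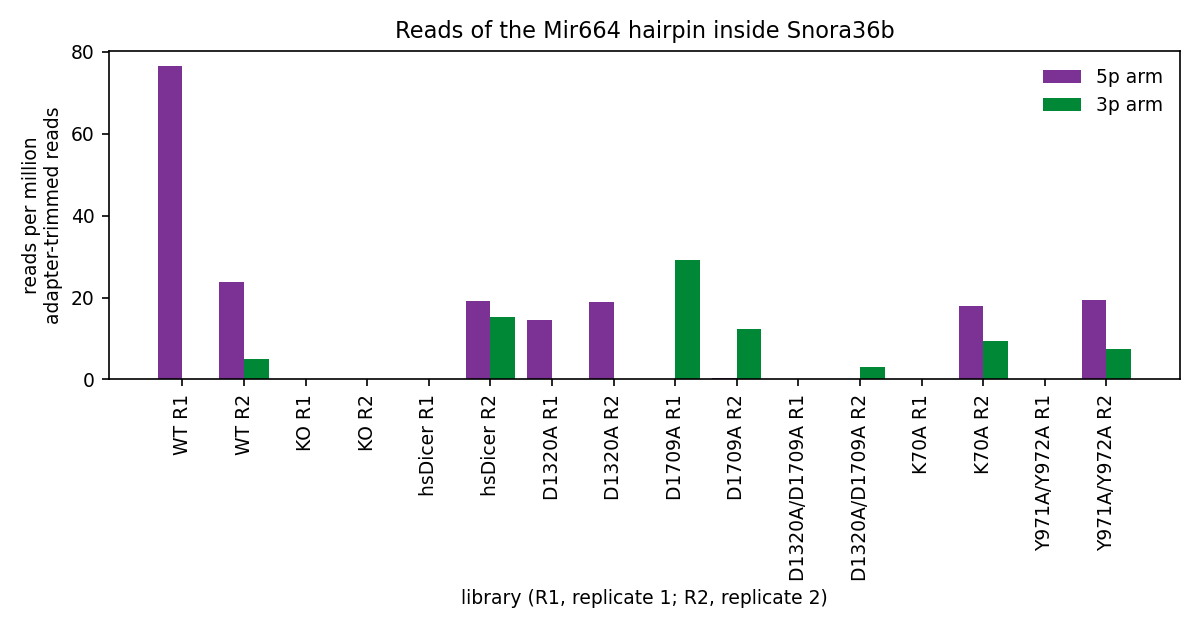
Level in CPM (vertical axis) of the 5p arm (purple) and the 3p arm (green) of the Mir664 hairpin inside Snora36b, in each of the 16 libraries. In D1320A only the 5p arm is seen (14.6 and 18.8 CPM) and in D1709A nearly only the 3p arm (29.1 and 12.3 CPM), while KO has 0.145 and 0.102 CPM of 5p and none of 3p.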

How the data were processed

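The deposited values are counts: per the labels and the files themselves, the authors gave each distinct read of a library with its count, untrimmed and unscaled. Total RNA was taken with Trizol and short RNA was cut from a polyacrylamide gel, per the labels' protocols. The software behind this step was not given in the sources used here.

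The 3′ adapter of the labels was removed where its first 12 bases matched inside a read, or 5 or more at its end, and inserts of 15 nt or more were kept. They were matched without mismatch, in sense, to GENCODE M21 small RNA genes, miRNA hairpins first, then named genes before unnamed copies. The gene table kept reads of 1 symbol, and the test took genes with a sum of 20 or more reads (857). edgeR 4.0.16 (quasi-likelihood, R 4.3.3, library sizes as adapter-trimmed reads) was fitted over all 16 libraries without a block, with Benjamini-Hochberg adjusted p under 0.05. DESeq2 1.42.0 was an alternative. The common biological coefficient of variation was 2.13. An exact permutation over libraries compared single values. Libraries with fewer than 20 H/ACA reads (KO, K70A and Y971A/Y972A replicate 1) were left out of lengths and positions. The fits were tested on simulated data. At the spread of these data they missed all or most of the changed genes, so a missing call does not show an unaffected gene.

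The genes named by rule are the 12 with the highest mean CPM, and Snora3, Snora34, Snora36b and Snora81. The rule also took genes passing a comparison in edgeR, but no H/ACA gene passed. Other members were named from their values, as in lists by position or reads, at an unadjusted p, by DESeq2 or as flagged. The members and lists were chosen with earlier results of these data known. The limits of 20 reads per library and 20 nt for the H box, and the restriction to replicate 2, were chosen after seeing the data. Replicate numbers shared by groups were checked for pairing: same-numbered libraries deviated together in all 28 pairs of groups (correlation 0.103 or more, median 0.351). Read length also differs by replicate number, so this check cannot tell paired samples from another difference shared by a replicate number. Intervals and limits from counts of 0 (3 reads) cover counting error only, since the reads carry no molecular identifiers.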

Additional observations from a re-analysis of the deposited data

Results flagged for a closer look

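Among the 6 libraries with both RNase III sites intact and 20 or more H/ACA reads, 3 values lay far from the others. WT replicate 1 had a median length of 36 nt, above the 23 to 25 nt of the others. In hsDicer replicate 1, 99.9% of H/ACA reads started at the 5′ end of the gene and 0.037% came from the 3′ hairpin, far above and far below the others. Chance flags about 1 in 20 groups, and 10 groups were looked at. Both libraries hold almost only 1 or 2 H/ACA fragments.

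In the reads without adapter, which the comparisons do not use, 3 members with no adapter-trimmed read were found. Snora28, at chr12:111540941-111541067 (+) in Eif5, had 6351 such reads in KO replicate 1, 615 CPM of all reads of 15 nt or more, adapter or not, and 0 to 304 in the other libraries. Snora30 reached 1.69 CPM in KO replicate 2, and Snora5c 0.586 CPM in hsDicer replicate 2.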

How the results depend on the processing

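The direction of most values per library between no RNase III activity and both sites intact was not stable, and no alternative brought one past the threshold (lowest p 0.0667). Restricted to replicate 2, chosen after seeing the data, the differences were 68.2 CPM, 2.75 nt in median length, -12.1 percentage points for 20 to 24 nt, 6.9 for the 3′ end and 3.23 for the 3′ hairpin, each opposite in sign to that over all libraries. With each distinct fragment given equal weight (added after seeing the data), they were 1.67 nt, -4.82 points for 20 to 24 nt, 11.3 points for the 5′ end and -8.21 points for the 3′ strand, also opposite. With reads without adapter, the level differed by 119 CPM. The median length differed by 0.369 nt with genes weighted equally and by 0.167 nt with hairpin reads included. Leaving out 1 library gave -54.1 to 48.6 CPM, -2.83 to 0.933 nt, -1.42 to 41.7 points for 20 to 24 nt, -25.4 to 10.9 for the 3′ end, -29.5 to 10.4 for the 3′ hairpin, -23.5 to -3.54 for the 5′ end and 6.85 to 26.8 for the 3′ strand, the smallest of the last 2 without hsDicer replicate 1. With miRNA reads left out of the library size, the level differed by -168 CPM (exact permutation p = 0.378). The CPM difference was positive at 5.16 without WT replicate 1, 48.6 without KO replicate 1 and 22.3 without hsDicer replicate 1. Median length turned at 0.933 nt without WT replicate 1 and 0.667 nt without D1320A/D1709A replicate 1, which also turned the shares of 20 to 24 nt, of the 3′ end and of the 3′ hairpin. The cause was not tested.

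No fit without 1 library called an H/ACA gene. The replicate block changed no H/ACA call (0 in all 8 comparisons), left the level difference at -14.8 CPM (exact permutation within replicate number, p = 0.907), and moved the counts over all genes from 4 to 15 in KO against WT, 3 to 9 in hsDicer against KO, 1 to 2 in D1320A, 3 to 4 in D1709A and 10 to 17 in D1320A/D1709A against hsDicer, and 33 to 41 in the pooled comparison. DESeq2 called 1 H/ACA gene in hsDicer against KO (Snora2b, up), 1 in D1709A (Snora74a, down), 1 in K70A (Snora2b, down) and 3 in Y971A/Y972A against hsDicer (Snora2b, Snora44 and Snora74a, down), and 1 in the pooled comparison (Snora74a, up). Its counts over all 857 genes were 36, 11, 5, 10 and 115 in these comparisons. The H/ACA calls against or for hsDicer rested on few reads or on 1 library. In replicates 1 and 2 of hsDicer, Snora74a had 3 and 0 reads, Snora2b 0 and 52, and Snora44 5399 and 37. Snora74a had 0 reads in D1709A and Y971A/Y972A. Snora2b had 0 in KO, K70A and Y971A/Y972A, and Snora44 had 1 and 0 in Y971A/Y972A. Over all genes the pooled comparison called 0 up and 33 down, 18 up and 0 down with TMM scaling, and 52 up and 63 down with DESeq2, whose scaling put the median gene at 1.41 rather than -0.43 on the log2 scale. Fragments over 36 nt cannot be seen with their adapter in replicate 1.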
